A study of Mus musculus with 8 samples.

Results

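The JAK kinases, STAT transcription factors and SOCS inhibitors carry cytokine signals from the cell surface to the nucleus. Here 10 of these genes, namely *Stat3*, *Stat4*, *Stat5a*, *Stat5b*, *Stat6*, *Jak1*, *Jak2*, *Jak3*, *Socs1* and *Socs3*, were taken by their symbols from a count table of 54188 genes. Each symbol matched 1 row, and all 10 genes were among the 17650 genes with enough counts to be tested. The table comes from RNA-seq of myeloid cells that were isolated by sorting. Spleen (SP) and bone marrow (BM) were taken from sanroque mice, which are homozygous for the san allele of Roquin (Roquin san/san) on a C57BL/6 background and develop a lupus-like disease. The labels give an age of 20 weeks and the sex as female for every library. The cells were sorted as CD11b+Gr-1hi, labelled G-MDSC (granulocytic myeloid-derived suppressor cells), or as CD11b+Gr-1lo, labelled M-MDSC (monocytic). Libraries 5 and 6 are SP Gr-1hi, 7 and 8 SP Gr-1lo, 9 and 10 BM Gr-1hi, and 11 and 12 BM Gr-1lo, so each group has 2 libraries. All 8 libraries carry the mutation, and no wild-type library was analysed here. The study describes the 2 libraries of a group as independent biological replicates and calls the BM cells autologous, that is, from the same animals. Neither the labels nor the study say which libraries share a mouse or whether mice were pooled.

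When a cytokine binds its receptor, the JAKs attached to the receptor chains phosphorylate each other, the receptor and a STAT protein. Phosphorylated STATs pair, enter the nucleus and bind DNA, and among the genes they switch on are the SOCS genes, whose products block the JAKs or the receptor and so close the loop. In the myeloid lineage, STAT3 acts downstream of G-CSF and IL-6, STAT5A and STAT5B downstream of GM-CSF, STAT6 downstream of IL-4 and IL-13, and STAT4 downstream of IL-12. JAK1 and JAK2 serve many receptors, whereas JAK3 works with the common gamma chain. RNA counts measure transcript levels only, and give no measure of phosphorylation.

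In the cells from SP, *Socs3* was higher than in the cells from BM in both subsets, by 4.18-fold in Gr-1hi cells and by 1.89-fold in Gr-1lo cells. *Socs1*, *Jak3* and *Jak2* were also higher and *Stat4* was lower in SP Gr-1hi than in BM Gr-1hi cells, while *Stat3*, *Stat5a*, *Stat5b*, *Stat6* and *Jak1* did not pass the test between the tissues in either subset. Between the subsets, 34.5% of all genes tested were higher and 41.2% lower in Gr-1hi cells in BM, and 33.6% and 37.8% in SP. Of the 10 genes, 8 in BM and 9 in SP were higher in Gr-1hi cells, with *Stat4* and *Jak1* among the larger differences. *Stat5a* was the exception and was lower in SP Gr-1hi than in SP Gr-1lo cells.

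Several library facts bear on these values. Gene counts summed to 33453580 in the shallowest library and to 68316154 in the deepest. CPM here is the count scaled to library size in the usual way, with TMM factors applied to the library sizes. These factors were 0.724 to 0.863 in the Gr-1hi libraries and 1.26 to 1.30 in the Gr-1lo libraries. They therefore raise the CPM of every gene in Gr-1hi relative to Gr-1lo libraries. A count of 0 would allow up to 3 counts, or 0.0348 to 0.124 CPM, for counting error alone. The lowest count of any of the 10 genes was 159, for *Socs1*, so none is near this limit. *Ly6g*, the Ly6G part of the Gr-1 antigen, was at 330 to 801 CPM in the Gr-1hi libraries and at 3.07 to 8.23 CPM in the Gr-1lo libraries. Although all libraries are labelled female, the Y-linked *Ddx3y* was at 0 only in library 5 and at 33.7 to 82.6 CPM in the others, and *Xist*, which marks cells of female mice, had 12032 and 9898 counts in libraries 5 and 7 but no more than 5 in any other. Library 7 thus held both transcripts. Every BM library held *Ddx3y* and at most 5 counts of *Xist*, so libraries 5 and 7 matched no BM library in these transcripts. For these 2 libraries, the transcripts do not bear out the description of SP and BM cells as from the same animals. The reason was not tested. Libraries 5 and 7 are both from SP, so the sex transcripts are partly confounded with tissue in the comparisons of SP and BM. For this reason, results that changed without libraries 5 and 7 are given with their values. The 2 SP Gr-1hi libraries also differed most from each other, with a chi-square of 75.1 per degree of freedom over genes, against 20.8 to 23.9 for the other pairs.

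Cells of other types were also detectable, and more so in SP. The summed CPM of 7 B cell markers was 446 and 311 in the SP Gr-1hi libraries, 56.9 and 74.2 in SP Gr-1lo, 17.9 and 15.0 in BM Gr-1hi, and 7.81 and 9.69 in BM Gr-1lo. The sum of 9 T cell markers was 102 and 64.0 CPM in SP Gr-1hi, 22.5 and 34.2 in SP Gr-1lo, 9.87 and 7.06 in BM Gr-1hi, and 2.03 and 2.06 in BM Gr-1lo. The sum of 6 NK cell markers was 10.7 to 14.8 CPM in SP Gr-1hi, 5.26 to 6.61 in SP Gr-1lo, 1.86 to 2.58 in BM Gr-1hi and 0.533 to 1.12 in BM Gr-1lo. No B or T cell marker was at 0 in any library, while 2 of the NK cell markers were at 0 in at least 1 library. All 7 B cell markers, 8 of 9 T cell markers and 5 of 6 NK cell markers passed the test (adjusted p no larger than 0.05) as higher in SP Gr-1hi than in BM Gr-1hi cells. In Gr-1lo cells these counts were 6, 9 and 3. Plasma cell, dendritic cell and erythroid marker sums were also above those of BM in both subsets. Of 6 dendritic cell markers, however, only 3 passed as higher and 1 as lower in SP Gr-1hi, and 2 as higher in SP Gr-1lo. *Itgax* had the most counts of these 6 in the Gr-1hi libraries, at 506 to 2718. The splenic macrophage sum was above that of BM in Gr-1hi cells. In Gr-1lo cells the latter sum was 42.4 to 47.6 CPM in SP and 40.4 to 51.4 CPM in BM, although 3 of its 4 markers passed as higher in SP. In contrast, the sum of 6 neutrophil markers was lower in SP Gr-1hi, at 32720 and 46500 CPM, than in BM Gr-1hi, at 64770 and 69880 CPM, with 3 markers passing as lower. In Gr-1lo cells this sum was higher in SP, at 4112 and 3675 CPM against 1777 and 1900 CPM in BM, with 3 markers passing as higher. The sum of 5 monocyte markers was lower in SP Gr-1lo, at 6299 and 6167 CPM, than in BM Gr-1lo, at 9482 and 8477 CPM, although none of the 5 passed. Lymphocytes express JAK, STAT and SOCS genes too, and their part in the differences between SP and BM was not tested. In bulk RNA, fewer cells of a type and less RNA per cell cannot be told apart.

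**Figure D1:**
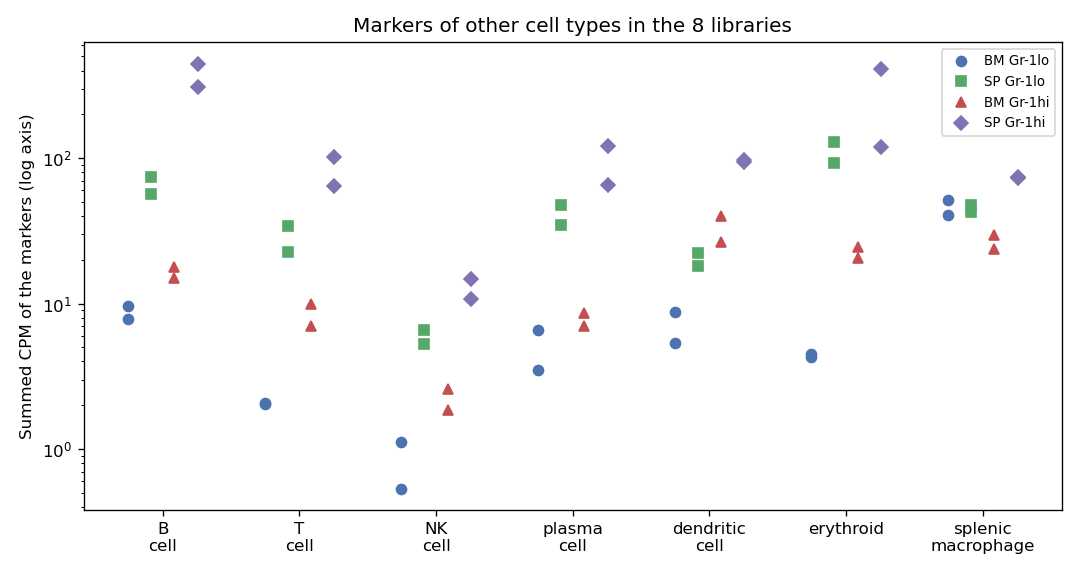
Summed CPM, on a log axis, of the marker genes of 7 other cell types, with 1 symbol per library and the 4 groups side by side. The B cell, T cell and NK cell sums of both SP groups lie above those of the BM group of the same subset, and the B cell sum reaches 446 CPM in SP Gr-1hi cells.

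*Socs3* and *Socs1* differed most between SP and BM, and the bases before their start sites are shown because STAT factors bind short motifs in promoters. RefSeq windows on GRCm38.p6, from 250 bases before to 50 bases after the start site, were found for all 10 genes, with 13 windows in total. They were searched on both strands for the GAS motif TTCNNNGAA, the binding motif of most STAT dimers, and for the variant TTCNNNNGAA with 4 spacer bases that STAT6 prefers, and for the core of the interferon-stimulated response element (ISRE), which is GAAANNGAAA and is bound by interferon-activated STAT complexes and IRF proteins. Across 32544 distinct windows of the same length, 8.33% held the GAS motif, 6.98% the variant with 4 spacer bases and 3.45% the ISRE core. Only the part of each window upstream of any annotated exon is printed, 5′ to 3′ on the strand of the gene, with the matches in capitals. The *Socs3* stretch is chr11:117969452-117969616, minus strand, and the *Socs1* stretch is chr16:10785537-10785786, minus strand.
Socs3: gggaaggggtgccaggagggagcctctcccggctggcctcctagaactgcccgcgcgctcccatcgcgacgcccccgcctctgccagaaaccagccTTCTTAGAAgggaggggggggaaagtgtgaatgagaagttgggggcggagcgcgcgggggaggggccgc
Socs1: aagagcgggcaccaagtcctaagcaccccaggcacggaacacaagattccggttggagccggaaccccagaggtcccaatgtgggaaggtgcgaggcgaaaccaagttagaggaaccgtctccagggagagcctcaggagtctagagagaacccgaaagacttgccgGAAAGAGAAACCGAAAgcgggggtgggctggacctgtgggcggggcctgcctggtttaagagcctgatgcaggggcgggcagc

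The capitals in *Socs3* are 1 match to the GAS motif, from position -154 to -146 relative to the start site. Those in *Socs1* are 2 overlapping matches to the ISRE core, at -83 to -74 and at -77 to -68. The only other match among the 10 genes was an ISRE core at -97 to -88 in a window of *Stat4*. The windows of the remaining 7 genes held none of the 3 motifs, which says only that these letters are not in these windows. A match is a description of the sequence, and binding was not measured in these data.

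*Socs3* encodes an inhibitor of gp130-type and G-CSF receptors and of the JAKs bound to them. Its level was 1241 and 1019 CPM in the SP Gr-1hi libraries, 263 and 277 in BM Gr-1hi, 189 and 151 in SP Gr-1lo, and 103 and 77.0 in BM Gr-1lo. No group overlapped another, and SP Gr-1hi stood far above the rest. The difference between SP and BM was 2.06 ± 0.172 on the log2 scale (SE) in Gr-1hi cells, with an adjusted p of 0.000208 by edgeR's quasi-likelihood test. It passed in every alternative, at 1.84 to 2.14 on the log2 scale. In Gr-1lo cells the difference was 0.92 ± 0.168 (adjusted p = 0.0161), and it no longer passed without library 7 (0.75, adjusted p = 0.0851) or without library 12 (0.73, adjusted p = 0.100). The neutrophil marker sum moved with this difference, from 1777 and 1900 CPM in BM Gr-1lo to 4112 and 3675 CPM in SP Gr-1lo. Not all of its 6 markers did, since 3 passed as higher in SP Gr-1lo. *S100a8* and *Ltf* had the most counts of the 6 in SP Gr-1lo. *Retnlg* went the other way, with 375 and 1285 counts in SP Gr-1lo against 845 and 1701 in BM Gr-1lo. The monocyte sum moved against the difference in *Socs3*, from 9482 and 8477 to 6299 and 6167 CPM. The part of either cell type in the result was not tested.

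Between the subsets, *Socs3* was higher in Gr-1hi than in Gr-1lo cells by 2.73 ± 0.177 on the log2 scale in SP (adjusted p = 3.4e-06) and by 1.59 ± 0.17 in BM (adjusted p = 3.7e-05). The test of the difference between these 2 changes, the interaction of tissue and subset, gave 1.14 ± 0.236 (adjusted p = 0.0169). Leaving out library 5 gave 0.90 (adjusted p = 0.0558), leaving out library 8 gave 0.99 (0.0606), and leaving out library 9 or 10 gave 1.02 (0.0726) or 1.06 (0.054). The ratio of *Socs3* to *Stat3* per length was 6.15 and 5.73 in SP Gr-1hi, 2.05 and 1.62 in SP Gr-1lo, 1.39 and 1.48 in BM Gr-1hi, and 1.21 and 0.930 in BM Gr-1lo. The ratio was highest in SP Gr-1hi. Whether it lies above 1 in BM depends on the lengths taken, since with the longest transcript the means were 148 TPM for *Socs3* and 144 TPM for *Stat3* in BM Gr-1hi, and 89.6 and 116 TPM in BM Gr-1lo.

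*Socs1*, an inhibitor of the JAKs that restrains interferon and common gamma chain signalling, was 38.1 and 40.1 CPM in SP Gr-1hi, 8.23 and 13.2 in SP Gr-1lo, 6.58 and 13.8 in BM Gr-1hi, and 3.26 and 7.67 in BM Gr-1lo. The SP Gr-1hi libraries were alike and separate from all others, whereas the libraries of each remaining group spread widely and overlapped with BM Gr-1hi. In Gr-1hi cells, *Socs1* was higher in SP by 1.94 ± 0.486 on the log2 scale, or 3.84-fold (adjusted p = 0.0234). The direction held in every alternative, but the call did not. With no filter on low counts the difference was 1.97 (adjusted p = 0.138). Leaving out library 5, 6 or 9 gave 1.90 (0.125), 1.83 (0.103) or 1.43 (0.0876), and leaving out libraries 5 and 7 together gave 2.00 (0.209). In Gr-1lo cells the difference between SP and BM was 0.98 ± 0.48 (adjusted p = 0.321), which did not pass although the 4 libraries did not overlap. Leaving out 1 library moved it between 0.49 (without library 11) and 1.73 (without library 12).

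Between the subsets, *Socs1* was higher in Gr-1hi cells in SP by 1.86 ± 0.47 (adjusted p = 0.0106). That call was lost without a filter (1.72, adjusted p = 0.105), without library 5 (1.87, 0.0634), library 6 (1.79, 0.07) or library 7 (1.54, 0.0765), and without libraries 5 and 7 (1.58, 0.219). In BM the difference was 0.89 ± 0.496 (adjusted p = 0.144), and it passed with DESeq2 (1.04, adjusted p = 0.0211), without library 9 (1.39, 0.0424) and without library 12 (1.62, 0.0248). It was as low as 0.35 without library 10 (0.576) and 0.38 without library 11 (0.485). The interaction was 0.97 ± 0.675 (adjusted p = 0.377), and it ranged from 0.22 without library 12 to 1.48 without library 10. These values rest on pairs of libraries that differ widely.

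The 3 kinases differed in pattern. *Jak1*, which serves interferon, gp130 and common gamma chain receptors, was 659 and 642 CPM in SP Gr-1hi, 716 and 643 in BM Gr-1hi, 210 and 214 in SP Gr-1lo, and 183 and 186 in BM Gr-1lo. The subsets were far apart and the tissues close, and the SP and BM Gr-1hi libraries overlapped. Its excess in Gr-1hi over Gr-1lo cells was 1.88 ± 0.0873 on the log2 scale in BM (adjusted p = 3.2e-07) and 1.62 ± 0.0866 in SP (adjusted p = 1.38e-06). The differences between SP and BM were 0.20 ± 0.0846 in Gr-1lo cells (adjusted p = 0.232) and -0.06 ± 0.0845 in Gr-1hi cells (adjusted p = 0.601).

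*Jak2*, the kinase of the GM-CSF, IL-3 and erythropoietin receptors, was 242 and 204 CPM in SP Gr-1hi, 148 and 155 in BM Gr-1hi, 111 and 127 in SP Gr-1lo, and 102 and 134 in BM Gr-1lo. SP Gr-1hi was the highest group and the Gr-1lo groups of the 2 tissues overlapped. *Jak2* was higher in SP than in BM Gr-1hi cells by 0.56 ± 0.144 (adjusted p = 0.0182). Leaving out library 5 gave 0.35 (adjusted p = 0.141), library 9 gave 0.45 (0.124), library 10 gave 0.50 (0.0949), and libraries 5 and 7 together gave 0.45 (0.105). In Gr-1lo cells, the difference between the tissues was 0.010 ± 0.143 (adjusted p = 0.981). Between the subsets, *Jak2* was higher in Gr-1hi cells in SP (0.91 ± 0.144, adjusted p = 0.000476). In BM the difference was 0.36 ± 0.144 (adjusted p = 0.0455), and it depended on single libraries. Leaving out library 7 or 8 gave 0.34 (0.0683 and 0.0659), library 9 gave 0.45 (0.0634), library 10 gave 0.41 (0.0862), library 11 gave 0.15 (0.377), library 12 gave 0.54 (0.0122), and libraries 5 and 7 together gave 0.31 (0.0631). With no filter it was 0.26 (0.0623), and with the exact test on quantile-normalized TPM 0.035 (0.975).

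*Jak3*, whose expression is mostly confined to blood cells and is high in lymphocytes, was 189 and 136 CPM in SP Gr-1hi, 96.0 and 103 in BM Gr-1hi, 78.1 and 72.2 in SP Gr-1lo, and 59.5 and 61.9 in BM Gr-1lo. The 4 groups did not overlap, and the SP Gr-1hi pair was the most spread. The difference between SP and BM was 0.71 ± 0.143 in Gr-1hi cells (adjusted p = 0.00685), or 0.59 without library 9 (adjusted p = 0.0623). It was smaller but still passed without library 5 (0.38, adjusted p = 0.0227) and without libraries 5 and 7 (0.47, 0.0222). The library with the higher *Jak3* of the SP Gr-1hi pair, library 5, also had the higher B cell sum (446 against 311 CPM) and T cell sum (102 against 64.0 CPM), and the part of these cells in the difference was not tested. In Gr-1lo cells the difference was 0.31 ± 0.142 (adjusted p = 0.274), and it passed in a fit of only the 4 libraries compared (adjusted p = 0.0284), without library 5 (0.0411) and without library 6 (0.0448). *Jak3* was also higher in Gr-1hi than in Gr-1lo cells, by 1.11 ± 0.143 in SP (adjusted p = 0.000135) and by 0.71 ± 0.143 in BM (adjusted p = 0.00176, or 0.0756 with the exact test on quantile-normalized TPM). In the annotation, 7.55% of its exon bases also belong to *Insl3* on the same strand, a gene with at most 419 counts in any library, and reads on these bases cannot be told apart.

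**Figure D2:**
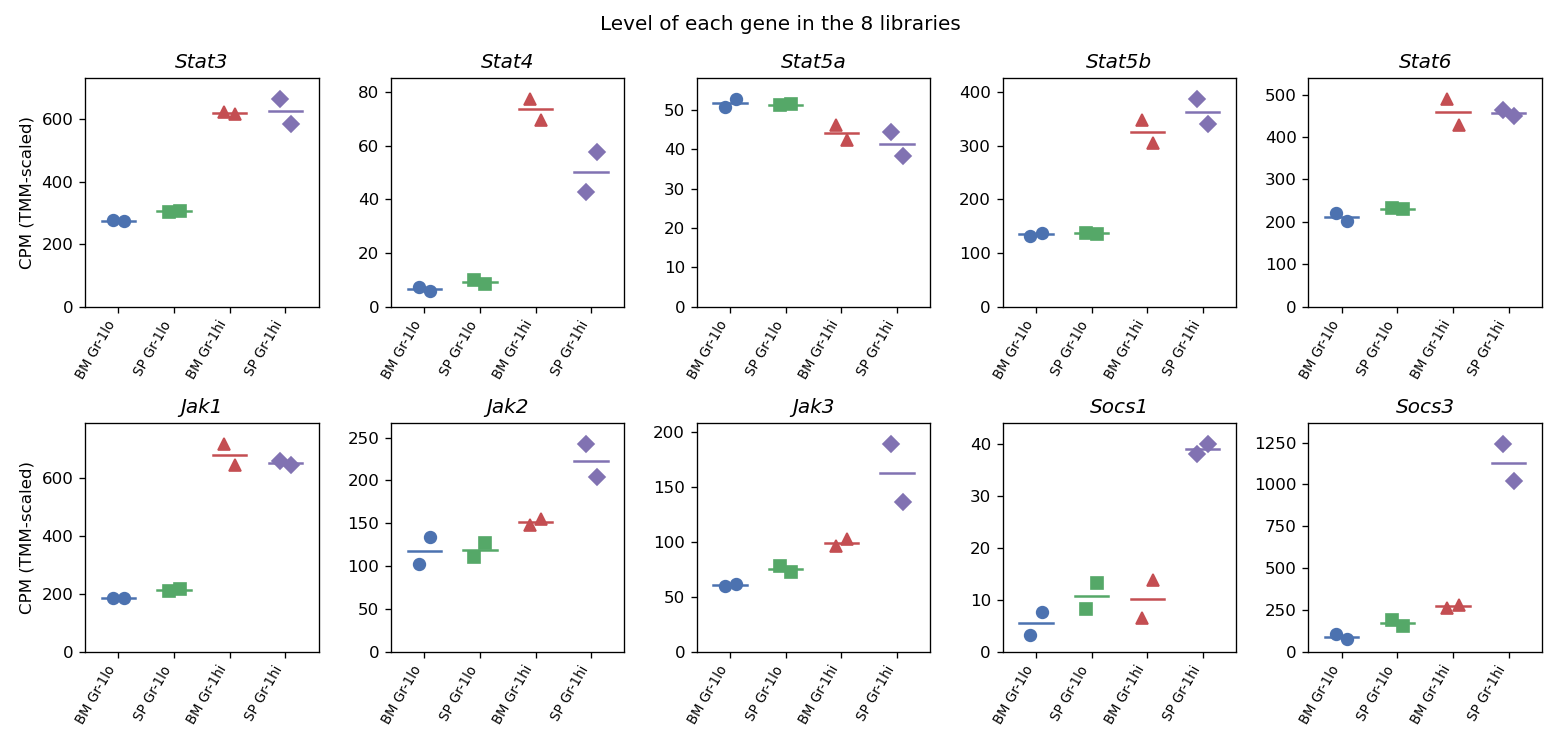
CPM of each of the 10 genes (vertical axis, from 0) in the 4 groups, with 1 symbol per library and a bar at the mean of the 2 libraries. *Socs3*, *Socs1*, *Jak3* and *Jak2* are highest in SP Gr-1hi cells, *Stat4* is highest in BM Gr-1hi cells, *Stat5a* is lowest in the Gr-1hi groups, and the remaining genes separate Gr-1hi from Gr-1lo cells with the tissues close together.

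*Stat3*, the main STAT of G-CSF and IL-6 signalling, was 665 and 586 CPM in SP Gr-1hi, 625 and 616 in BM Gr-1hi, 304 and 307 in SP Gr-1lo, and 279 and 273 in BM Gr-1lo. The Gr-1hi groups of the 2 tissues overlapped and both lay well above the Gr-1lo groups. It was higher in Gr-1hi cells by 1.17 ± 0.0886 on the log2 scale in BM (adjusted p = 3.7e-06) and by 1.03 ± 0.0883 in SP (adjusted p = 1.17e-05). Between SP and BM, the difference was 0.15 ± 0.0874 in Gr-1lo cells (adjusted p = 0.393) and 0.012 ± 0.0874 in Gr-1hi cells (adjusted p = 0.933). *Socs3*, a target of STAT3 in many cells, thus differed between the tissues in both subsets where the *Stat3* transcript did not pass the test.

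*Stat4*, known mainly for IL-12 signals in T and NK cells, showed the largest difference between the subsets of the 10 genes in BM, and the largest but *Socs3* in SP. Its level was 77.4 and 69.8 CPM in BM Gr-1hi, 42.7 and 57.8 in SP Gr-1hi, 10.0 and 8.49 in SP Gr-1lo, and 7.27 and 5.76 in BM Gr-1lo. None of the groups overlapped, and the BM Gr-1hi libraries were above the SP Gr-1hi libraries. The excess in Gr-1hi over Gr-1lo cells was 3.50 ± 0.187 on the log2 scale, or 11.3-fold, in BM (adjusted p = 6.3e-07) and 2.44 ± 0.178, or 5.44-fold, in SP (adjusted p = 5.6e-06). The NK and T cell marker sums were higher in SP than in BM Gr-1hi cells. The neutrophil sum was lower in SP Gr-1hi, at 32720 and 46500 CPM against 64770 and 69880 CPM in BM Gr-1hi. The part of these cells in the *Stat4* result was not tested. *Stat4* was lower in SP than in BM Gr-1hi cells, at -0.55 ± 0.168 (adjusted p = 0.0355). That difference was -0.48 with upper-quartile scaling (adjusted p = 0.0565), -0.54 in the fit of 4 libraries (0.0607) and -0.42 with the exact test on quantile-normalized TPM (0.477). Leaving out library 5 gave -0.43 (0.092), library 6 gave -0.86 (0.00412), library 9 gave -0.55 (0.0952), and libraries 5 and 7 together gave -0.33 (0.194). In Gr-1lo cells *Stat4* differed by 0.50 ± 0.178 (adjusted p = 0.166), and passed only when no filter was used (adjusted p = 0.00171). The interaction was -1.05 ± 0.245 (adjusted p = 0.0244). Leaving out library 7 gave -0.94 (0.0843), library 8 gave -1.17 (0.0513), library 9 gave -1.07 (0.0592), library 12 gave -0.89 (0.0911), and libraries 5 and 7 together gave -0.71 (0.112). In the annotation, 26.7% of the exon bases of *Stat4* also belong to *Gm28177*, a gene on the same strand with 17007 to 55856 counts per library, so reads on these bases cannot be told apart and the level of *Stat4* is uncertain to that extent.

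*Stat5a* and *Stat5b* encode near-identical proteins and lie side by side on chromosome 11 with *Stat3* (GRCm38). *Stat5b* occupies chr11:100780731-100850724 on the minus strand, *Stat5a* chr11:100859351-100885169 on the plus strand and *Stat3* chr11:100885098-100939540 on the minus strand. Between *Stat5b* and *Stat5a* there are 8626 bases, and *Stat5a* and *Stat3* overlap by 72 bases at their 3′ ends, which is 1.01% and 0.756% of their exon bases. Of all distinct 101-base stretches in their annotated transcripts, as long as a read, 3.40% of those of *Stat5a* and 4.73% of those of *Stat5b* also occur in the other gene. Reads on these shared stretches cannot be assigned to 1 of the 2 genes, and the other stretches differ between them.

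The pair went in opposite directions between the subsets, although *Stat5a* did not pass in BM. *Stat5b* was 387 and 341 CPM in SP Gr-1hi, 348 and 306 in BM Gr-1hi, 137 and 136 in SP Gr-1lo, and 131 and 138 in BM Gr-1lo. *Stat5a* was 44.5 and 38.2 CPM in SP Gr-1hi, 46.1 and 42.3 in BM Gr-1hi, 51.1 and 51.4 in SP Gr-1lo, and 50.7 and 52.7 in BM Gr-1lo. The Gr-1hi libraries were above the Gr-1lo libraries for *Stat5b* and below them for *Stat5a*, with no overlap in either gene. *Stat5b* was higher in Gr-1hi cells by 1.28 ± 0.1 on the log2 scale in BM (adjusted p = 4.63e-06) and by 1.41 ± 0.101 in SP (adjusted p = 4.67e-06).

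*Stat5a* was lower in SP Gr-1hi than in SP Gr-1lo cells, at -0.31 ± 0.101 (adjusted p = 0.0215), and differed by -0.23 ± 0.101 in BM (adjusted p = 0.0689). The call in SP was lost with RLE scaling (-0.18, adjusted p = 0.166), upper-quartile scaling (-0.23, 0.0922), DESeq2 (-0.18, 0.221) and the exact test on quantile-normalized TPM (-0.18, 0.838), and without library 6 (-0.23, 0.0788), library 7 (-0.34, 0.0635) or library 8 (-0.33, 0.0728). In BM the difference passed without a filter (-0.33, adjusted p = 0.0227), and it was -0.28 without libraries 5 and 7. It ranged from -0.28 to -0.082 when each library was left out, and its weakest value over the alternatives was -0.043. The median over all genes in this comparison was -0.175. Within a library, which removes the choice of scaling, the ratio of *Stat5b* to *Stat5a* per length was 11.2 and 11.5 in SP Gr-1hi, 9.71 and 9.31 in BM Gr-1hi, 3.45 and 3.42 in SP Gr-1lo, and 3.33 and 3.37 in BM Gr-1lo. All Gr-1hi libraries were therefore above all Gr-1lo libraries in the share of *Stat5b*. The absolute ratio depends on the lengths taken, but its difference between libraries does not.

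*Stat6*, which carries IL-4 and IL-13 signals, was 464 and 449 CPM in SP Gr-1hi, 489 and 429 in BM Gr-1hi, 232 and 230 in SP Gr-1lo, and 220 and 203 in BM Gr-1lo. As with *Stat3* and *Jak1*, the tissues overlapped in Gr-1hi cells and the subsets did not. It was higher in Gr-1hi cells by 1.12 ± 0.0938 in BM (adjusted p = 6.98e-06) and by 0.98 ± 0.0935 in SP (adjusted p = 2.19e-05). Between SP and BM, *Stat6* differed by 0.13 ± 0.0927 in Gr-1lo cells (adjusted p = 0.496) and by -0.0092 ± 0.0927 in Gr-1hi cells (adjusted p = 0.95), and *Stat5b* by 0.021 ± 0.0987 (0.933) and 0.16 ± 0.0987 (0.253). *Stat5a* differed by -0.013 ± 0.0998 (0.961) and -0.097 ± 0.101 (0.489).

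Counted over the 10 genes and read against all 17650 genes tested, the comparisons differ. Between SP and BM in Gr-1lo cells, 1 gene passed as higher, where 4.88% of all genes did, and none as lower, where 0.697% did. With the fold change of at least 2 that the study requires of a differentially expressed gene (DEG), 4.06% of all genes were called and none of the 10 was. In Gr-1hi cells, 4 genes were higher and 1 was lower, where 20.1% and 13.9% of all genes were. These shares stand for 3543 and 2455 genes, and RLE scaling gave 3240 and 3486, without a change in the count of the 10. *Socs1* and *Socs3* were the 2 DEGs, where 15.5% of all genes were. Between Gr-1hi and Gr-1lo cells in BM, 8 genes were higher and 0 lower, where 34.5% and 41.2% of all genes were. In SP, 9 were higher and 1 lower, where 33.6% and 37.8% were. For this comparison the study requires an adjusted p below 0.01 and a fold change above 8, which *Stat4* alone met in BM, where 16.7% of all genes did, and none of the 10 met in SP, where 7.37% did. In the interaction, *Socs3* was higher and *Stat4* lower, where 10.3% and 6.08% of all genes passed.

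The median log2 difference of the 10 genes between Gr-1hi and Gr-1lo cells was 1.14 in BM and 1.26 in SP, while the median over all genes tested was -0.175 and -0.0875. With RLE scaling the medians over all genes moved to -0.0251 and 0.0448, a shift of over 0.1 in each tissue. This shift is small beside the differences of the 10 genes other than *Stat5a* and *Jak2* in BM, but other alternatives moved some of them more. *Stat6* and *Stat3* in BM were as low as 0.65 and 0.75, where the main fit gave 1.12 and 1.17. Their means in BM Gr-1hi against BM Gr-1lo were 175 against 148 TPM and 109 against 89.2 TPM. TPM carries no TMM factor, so the size of the subset differences depends on the scaling. With the exact test on quantile-normalized TPM, 6 of the 10 genes passed as higher in BM and 9 in SP. Over all 14108 genes in that test, 3571 did in BM and 2892 in SP. Between SP and BM the median of the 10 genes was 0.174 in Gr-1lo and 0.0837 in Gr-1hi cells, against -0.0128 and 0.0297 over all genes. The comparisons share libraries, so their counts are not independent of each other.

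**Figure D3:**
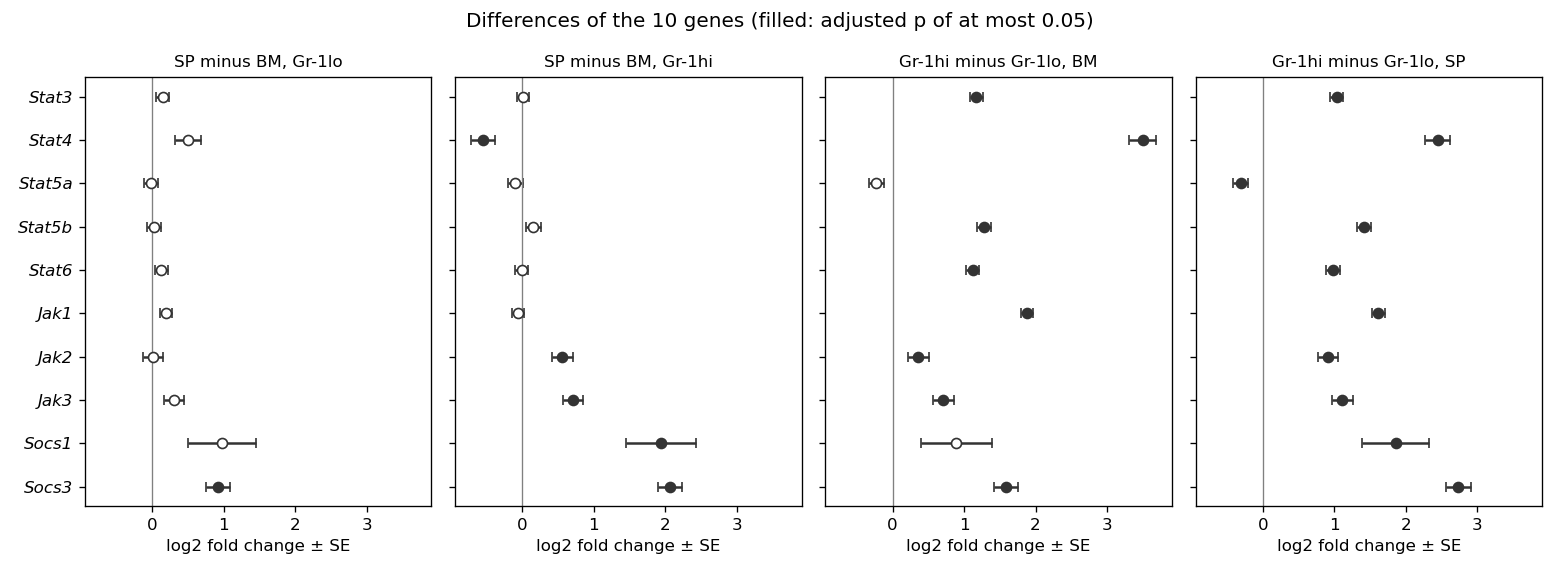
Log2 fold change ± SE of each of the 10 genes in the 4 comparisons of groups, where filled points passed the test and open points did not. The tissue panels hold 1 and 5 filled points, the subset panels 8 and 10, and *Stat5a* is the only gene to the left of 0 in the subset panels.

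Levels of different genes can be compared only per length, and for this TPM was computed with exon lengths. *Socs3* was the most abundant of the 10 transcripts in SP Gr-1hi, at 789 TPM (libraries at 680 and 897), and had the highest mean in SP Gr-1lo, at 174 TPM. In the latter group it did not separate from *Stat6*, since the libraries were at 151 to 197 TPM for *Socs3* and at 151 to 159 TPM for *Stat6*. *Stat6* led in BM Gr-1hi, at 175 TPM, with *Jak1* at 157 and *Socs3* at 156 TPM. The libraries of *Jak1*, at 145 to 170 TPM, overlapped those of *Stat6*, at 159 to 191 TPM. Those of *Socs3*, both at 156 TPM, lay just below the lower *Stat6* library. In BM Gr-1lo, *Stat6* led with 148 TPM and was followed by *Socs3* with 95.8, *Stat3* with 89.2 and *Jak1* with 78.6 TPM. Among all genes tested, *Socs3* reached the percentile 99.1 in SP Gr-1hi cells and 91.1 in BM Gr-1lo cells.

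At the other end, *Stat4* was lowest in both Gr-1lo groups, at 5.19 TPM in BM and 7.07 TPM in SP, next to *Socs1* at 5.76 and 10.8 TPM. In Gr-1hi cells the lowest were *Socs1* in BM, at 5.82 TPM, and *Stat5a* in SP, at 11.7 TPM. With the length of the longest transcript in place of all exons, *Jak1* passed *Stat6* in BM Gr-1hi (194 against 171 TPM) and *Socs1* passed below *Stat4* in BM Gr-1lo (4.75 against 5.56 TPM). In BM Gr-1lo, *Socs3*, at 89.6 TPM, then came after *Stat6* (142 TPM), *Stat3* (116 TPM) and *Jak1* (95.5 TPM). *Socs3* still had the highest mean in both SP groups. TPM carries no TMM scaling and serves here only to rank genes within a group. Between Gr-1hi and Gr-1lo cells of BM, *Jak2* and *Jak3* have the opposite order on the TPM scale (50.4 against 72.1 and 31.0 against 34.9 TPM) to that on the CPM scale.

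**Figure D4:**
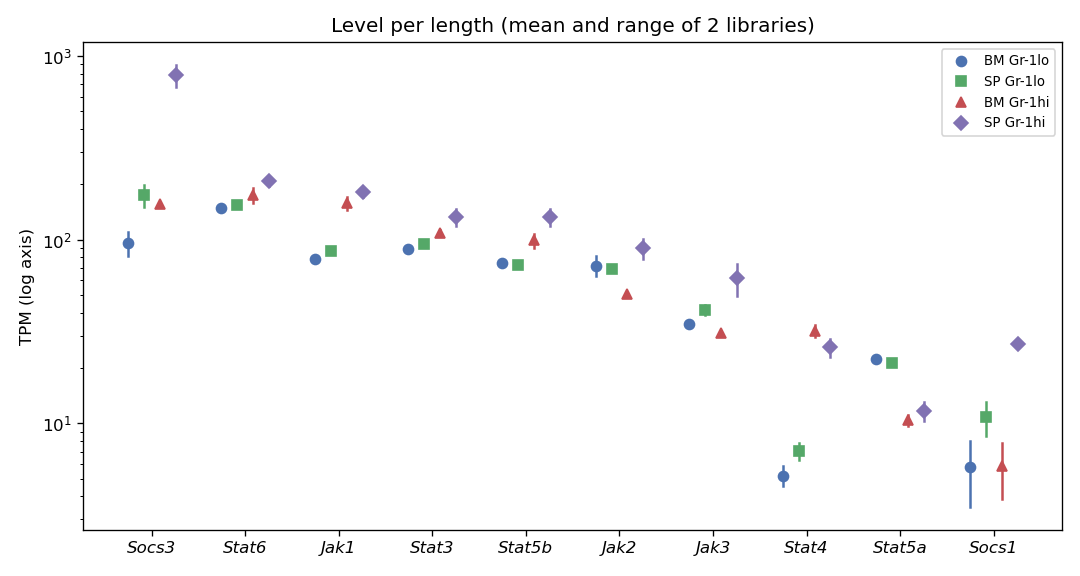
TPM of the 10 genes on a log axis, with the mean of each group as a symbol and the range of its 2 libraries as a line. *Socs3* stands alone at 789 TPM in SP Gr-1hi cells, and *Stat4* and *Socs1* lie lowest in the BM Gr-1lo group.

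The other genes of the pathway were taken from fixed lists. *Stat2*, which carries interferon signals, was higher in Gr-1hi than in Gr-1lo cells in both tissues, by 0.63 on the log2 scale in BM and by 1.17 in SP. *Tyk2*, the kinase of the interferon and IL-12 receptors, was lower in Gr-1hi cells, at -1.47 in BM and -1.58 in SP (adjusted p = 1.11e-06 and 1.72e-06), the opposite of the 3 other JAKs. Between SP and BM, *Stat2* was higher in Gr-1hi cells (0.76, adjusted p = 0.0339), whereas *Tyk2* at -0.13 (0.27) did not pass. In Gr-1lo cells the differences were 0.22 for *Stat2* (adjusted p = 0.634) and -0.023 for *Tyk2* (0.916), and neither passed.

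Among 6 other genes of the CIS and SOCS family, 4 were higher in SP than in BM Gr-1hi cells and 2 in Gr-1lo cells, with none lower. Over all genes tested, 20.1% were higher and 13.9% lower in Gr-1hi cells, and 4.88% and 0.697% in Gr-1lo cells. *Socs5* rose by 1.83 ± 0.373 (adjusted p = 0.00762) and *Socs7* by 0.55 ± 0.122 (0.0102) in Gr-1hi cells. *Cish*, a target of STAT5, was higher in SP Gr-1lo than in BM Gr-1lo cells by 1.75 ± 0.38 (adjusted p = 0.0371). Between the subsets, *Cish* was 15.2 and 21.2 CPM in BM Gr-1hi against 0.533 and 1.23 in BM Gr-1lo, and 24.8 and 18.4 in SP Gr-1hi against 2.41 and 3.49 in SP Gr-1lo, so it was higher in all Gr-1hi libraries (4.35 and 2.85 on the log2 scale). *Socs6* and *Socs7* were lower in Gr-1hi cells in both tissues, *Socs6* at -2.55 in BM and -1.95 in SP, and *Socs7* at -1.52 and -0.82. The SOCS genes thus did not all follow *Socs1* and *Socs3* between the subsets. *Socs2* was below 1 CPM in every library, and its call rests on few reads.

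Of 10 other inhibitors, 3 were higher and 1 was lower in SP than in BM Gr-1hi cells, and 1 was higher in Gr-1lo cells. These counts are near the shares over all genes, 20.1% and 13.9% in Gr-1hi and 4.88% higher in Gr-1lo cells. *Usp18*, which blocks the type I interferon receptor, was higher in SP Gr-1hi (0.70, adjusted p = 0.0191), and *Pias3*, an inhibitor of STAT3, was lower there (-0.54, adjusted p = 0.0049). *Ptprc*, which encodes the CD45 phosphatase of all leukocytes, was higher in SP Gr-1lo (0.67, adjusted p = 0.00675). Between the subsets, 8 of the 10 inhibitors were higher and 1 lower in Gr-1hi cells in BM (34.5% and 41.2% of all genes), and 7 were higher and 1 lower in SP (33.6% and 37.8%), with *Pias3* and *Ptprc* at the lowest p in both.

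Of 36 receptor chains that bind JAKs, 29 were tested, and 15 were higher and 2 lower in SP than in BM Gr-1hi cells, while 9 were higher and none lower in Gr-1lo cells. The shares over all genes were 20.1% and 13.9%, and 4.88% and 0.697%. The lowest p in Gr-1hi cells belonged to *Il21r*, at 24.7 and 15.7 CPM in SP against 1.83 and 2.19 in BM, to *Il9r* and to *Il2rb*, at 21.3 and 14.1 CPM against 2.13 and 2.39. In Gr-1lo cells it belonged to *Il7r*, at 2.58 and 3.75 CPM in SP against 0.246 and 0.246 in BM, again *Il2rb* and *Il9r*. These chains belong to the common gamma chain family that lymphocytes use. Between SP and BM they moved with the B, T and NK cell marker sums given above, whose part was not tested. Between the subsets *Il21r* moved against these sums, at 10.6 and 12.5 CPM in BM Gr-1lo against 1.83 and 2.19 in BM Gr-1hi. Between the subsets, *Csf3r*, the receptor of G-CSF, was higher in Gr-1hi cells by 4.13 ± 0.185 in BM and by 4.51 ± 0.189 in SP, and *Lifr*, the receptor of LIF, was lower, at -4.15 in BM and -2.95 in SP. In all, 16 chains were higher and 10 lower in Gr-1hi cells in BM, where 34.5% and 41.2% of all genes were, and 18 and 8 in SP, where 33.6% and 37.8% were.

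Of 27 cytokines that signal through JAKs, 15 were too low to be tested, among them *Il6*, *Il10*, *Il4*, *Csf2* and *Csf3*, and none of these 5 exceeded 0.411 CPM in any library. Of the 12 tested, 4 were higher and 1 was lower in SP than in BM Gr-1hi cells, and 2 were higher in Gr-1lo cells, beside 20.1%, 13.9% and 4.88% of all genes. The lower gene was *Ebi3*, a subunit of IL-27 and IL-35, at 122 and 138 CPM in SP Gr-1hi against 188 and 175 CPM in BM Gr-1hi (-0.48 ± 0.0917, adjusted p = 0.00573). *Clcf1*, which encodes a cytokine of the IL-6 family, was 10.9 and 7.69 CPM in SP Gr-1hi against 1.38 and 1.24 in BM Gr-1hi (2.82 ± 0.27, adjusted p = 0.000306), and was higher in SP Gr-1lo too (2.42 ± 0.276, 0.00165). *Ifng*, made by T and NK cells, was at 1.93 and 1.56 CPM in SP Gr-1hi and at 0.0748 and 0.248 in BM Gr-1hi, and had no counts in BM Gr-1lo. Between the subsets, *Il15*, *Ebi3* and *Osm* were higher in BM Gr-1hi than in BM Gr-1lo cells, by 2.72, 2.77 and 3.80.

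Of 17 known STAT target genes, 16 were tested, and 8 were higher and none lower in SP than in BM Gr-1hi cells, while 5 were higher and none lower in Gr-1lo cells. The shares over all genes were 20.1% and 13.9% in Gr-1hi cells, and 4.88% and 0.697% in Gr-1lo cells. *Cxcl10*, which encodes an interferon-induced chemokine, was 31.7 and 29.1 CPM in SP Gr-1hi against 0.673 and 1.49 in BM Gr-1hi (4.83 ± 0.474, adjusted p = 0.000524). *Cxcl9*, a related chemokine, was 47.7 and 116 CPM in SP Gr-1lo against 4.02 and 3.40 in BM Gr-1lo (4.46 ± 0.465, adjusted p = 0.00298). *Tbx21* and *Fcer2a*, which are known from lymphocytes, had the lowest p in both subsets and moved with the lymphocyte marker sums, whose part was not tested. Between the subsets, 14 of the 16 targets were higher and 1 lower in SP Gr-1hi than in SP Gr-1lo cells (33.6% and 37.8% of all genes), and 8 higher and 2 lower in BM (34.5% and 41.2%). *Bcl6*, which encodes a repressor, was higher by 2.72 in BM and 2.12 in SP, *Cebpd* by 2.33 and 2.31, and the survival gene *Mcl1* by 1.82 in SP.

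The genes whose pattern was most like that of each of the 10 were found by Pearson's r of log2 CPM over the 8 libraries, among 8597 genes with a mean of at least 10 CPM. The libraries fall into a Gr-1hi and a Gr-1lo set, and r mostly follows this split, so it is given as a description only. For *Socs3* these were *C130050O18Rik* (0.994), *Il13ra1*, a receptor chain for IL-13 (0.990), and *Marcks* (0.989). For *Socs1* they were *Gbp9* (0.989), *Gbp2* (0.982) and *Ifi208* (0.970), all known as interferon-inducible. For *Jak3* they were *Myd88*, the adaptor of Toll-like receptors (0.994), *Casp4* (0.989) and *Spata13* (0.988), and for *Jak2* they were *Idnk* (0.985), *Zbtb44* (0.983) and *Gm8995* (0.982). *Stat5a* was nearest to *Mms19* (0.964), *Plod3* (0.962) and *Pisd* (0.955). For *Stat3*, *Stat4*, *Stat5b*, *Stat6* and *Jak1* the closest genes were *Herc4* (0.9995), *Panct2* (0.9991), *Golgb1* (0.9991), *Ypel3* (0.9989) and *Cdc42se1* (0.9997). Among the 10 genes themselves, the highest r was that of *Stat6* with *Jak1* (0.997), and *Stat5a* had a negative r with each of the other 9.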

How the data were processed

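The authors aligned 101 bp paired reads of stranded mRNA libraries (TruSeq Stranded mRNA) to GRCm38 with STAR and deposited raw counts per gene from featureCounts, without normalization, for all 8 libraries. Their later steps (TPM, quantile normalization and testing) are not part of this table. Here the counts were filtered with filterByExpr, which left 17650 genes, scaled by TMM and fitted in 1 quasi-likelihood model (edgeR 4.0.16, R 4.3.3, robust dispersion) with 1 term per group and 4 residual degrees of freedom. The Benjamini-Hochberg adjustment covered all genes tested, and a gene passed at an adjusted p of at most 0.05. SE is the log2 difference divided by the square root of F. With 2 libraries per group, p values measure the spread between these libraries. The samples were grouped by their labels. Other lists, each given by counts, were described with the 3 genes of lowest p per comparison. The 10 genes, lists and tests were chosen with earlier results of these data known. Exon lengths for TPM, positions and overlaps came from GENCODE M21, which holds 53947 of the 54188 identifiers, and promoter sequences from RefSeq on GRCm38.p6. No protein sequence is shown. The procedure was tested on simulated data. Alternatives were RLE and upper-quartile scaling, no filter, DESeq2 1.42.0, a fit of the 4 libraries compared, edgeR's exact test on quantile-normalized TPM, each library left out, and, chosen after seeing the data, libraries 5 and 7 left out. A gene of the pathway lists is not reported here.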

Additional observations from a re-analysis of the deposited data

Results flagged for a closer look

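For 2 of the 10 genes, the difference between Gr-1hi and Gr-1lo cells passed as unlike in SP and BM. The test was that of the interaction in edgeR's quasi-likelihood model, where 10.3% of all genes passed as higher and 6.08% as lower. For *Socs3* the log2 difference between the changes, SP minus BM, was 1.14 (adjusted p = 0.0169), and 0.90 to 1.34 when each library was left out. For *Stat4* it was -1.05 (adjusted p = 0.0244), and -1.38 to -0.89 when each library was left out. Neither call held in every alternative. For *Jak2* the interaction was 0.55 (adjusted p = 0.101), and it passed only with no filter on low counts (0.52, adjusted p = 0.0145). For *Jak3* it was 0.40 (adjusted p = 0.206), and 0.053 to 0.53 when each library was left out. Groups of 2 libraries were not tested for a library that stands apart.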

How the results depend on the processing

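No paired analysis was possible because the labels number the libraries 5 to 12, no number is shared between groups and no mouse is given. Of 26 log2 differences that passed, none changed direction in any of 386 alternatives, and 338 of these still passed. The number of the 10 genes that passed between SP and BM in Gr-1lo cells was 1, and 2 without a filter and in the fit of 4 libraries, and 0 to 2 when each library was left out, with 0 without library 7 or 12. In Gr-1hi cells it was 5, with 1 to 5 when each library was left out (2 without library 5, 1 without library 9) and 2 without libraries 5 and 7. The interaction count was 2, with 0 to 3 when each library was left out and 1 without libraries 5 and 7. The 0 arose without library 8 or 9. Differences near 0 that had not passed changed sign. With RLE scaling and with DESeq2, *Stat3* in Gr-1hi cells (SP minus BM) was -0.061 and -0.061, *Jak2* in Gr-1lo cells -0.047 and -0.047, and *Stat5b* in Gr-1lo cells -0.036 and -0.036. With upper-quartile scaling, *Jak1* in Gr-1hi cells was 0.014, *Stat6* in Gr-1hi cells 0.067 and *Stat5a* in Gr-1lo cells 0.024. Without a filter, *Stat6* was 0.0089 and *Stat5a* 0.032. In the fit of 4 libraries, *Stat6* was 0.0054 and *Stat5a* 0.012. With the exact test *Stat6* was 0.061, and without libraries 5 and 7 *Stat3* was -0.067. When each library was left out, *Jak2* in Gr-1lo cells ranged from -0.17 to 0.22, *Stat5a* in Gr-1lo cells from -0.040 to 0.017, *Stat5b* in Gr-1lo cells from -0.016 to 0.06 and in Gr-1hi cells from -0.035 to 0.18, *Stat3* in Gr-1hi cells from -0.16 to 0.023, *Stat6* in Gr-1hi cells from -0.20 to 0.016, and the interaction of *Stat5b* from -0.072 to 0.17. The cause of these changes was not tested. Over all genes, 861 were higher and 123 lower in SP than in BM Gr-1lo cells, with 315 to 1620 and 7 to 732 over the alternatives. In Gr-1hi cells 3543 and 2455 became 838 to 4028 and 565 to 3735, and in the interaction 1818 and 1073 became 706 to 2327 and 255 to 2581. Between the subsets the exact test called the fewest, 3571 and 3432 in BM (6095 and 7264 as reported) and 2892 and 2888 in SP (5922 and 6679 as reported). Precision is limited by 2 libraries per group, and for *Socs1* by counts as low as 159.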
